A study of Mus musculus with 10 samples.

Results

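The mouse genome names a large family of zinc finger proteins Zfp followed by a number, and this report describes the members of that family that were well expressed in the heart. Of 383 protein-coding genes with such a symbol, the 195 with a mean of at least 5 CPM (a gene's share of all counts on genes, scaled to a fixed total) over 10 hearts were retained, and 188 lay below that level. The genes were thus selected on their level, and levels are given here as a description. The level threshold did not use the comparison of training with sedentary hearts. The genes and lists were, however, chosen with earlier results of these data known.

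RNA was sequenced from whole hearts, atria and ventricles together, of 5 wild-type mice after endurance training and of 5 sedentary wild-type mice of the same age. The methods give C57BL/6 mice bought when 8 weeks old, and the training mice were made to run on a treadmill at 15 m/min for 120 min a day on 5 days a week for 8 weeks, while the sedentary mice did not train. The methods also describe PET/CT scans of mice of both kinds under isoflurane with an injected fluorodeoxyglucose tracer, and no transgene is named in either group. Between 29461697 and 35945417 counts fell on genes in the training hearts and between 35196993 and 39431030 in the sedentary hearts, and each labelled mouse was treated as a replicate. Beside the comparison stood a difference in markers. The summed level of 7 atrial genes was 5185 to 7792 CPM in the training hearts and 2866 to 6969 CPM in the sedentary hearts (median log2 fold change 0.50, 3 higher and 0 lower by the test). Nppa, the largest atrial gene at 3516 ± 581 against 2554 ± 1004 CPM (SD, n = 5 each), did not pass (adjusted p = 0.248, edgeR). The sum of 6 fibroblast genes was 2541 to 3407 against 2349 to 2650 CPM (median 0.25, 3 higher and 0 lower). That of 6 endothelial genes was 757 to 825 against 841 to 886 CPM (median −0.088, 0 higher and 1 lower). Medians were 0.68 for 4 adipocyte, −0.43 for 3 erythroid and −0.069 for 5 mural genes, of which 1, a mural gene, passed by edgeR. For 7 cardiomyocyte genes the sums were 53756 to 57384 against 56697 to 64424 CPM (median log2 fold change −0.11, 0 higher and 1 lower by the test), and for 3 Schwann cell genes 7.93 to 9.99 against 6.65 to 8.51 CPM (median 0.24, 0 passed by edgeR). The part of these markers in the results was not tested, except where an atrial score is named as a covariate. In bulk tissue, fewer cells of a type and less RNA per cell cannot be told apart.

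Classical zinc fingers of the C2H2 type hold a zinc ion between a pair of cysteines and a pair of histidines, and arrays of them can bind specific DNA sequences. Many members also carry a KRAB domain, which recruits the scaffold protein Trim28 and through it the histone H3K9 methyltransferase Setdb1 and other silencing factors, above all at retroelements and imprinted genes. Other members without KRAB bind RNA, act in ribosome quality control or attach ubiquitin, and Zfp36 belongs to the separate CCCH class that binds AU-rich messenger RNAs and speeds their decay.

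In the translated coding sequences, 78 of the 195 genes matched both a C2H2 finger and a KRAB pattern, 112 matched a C2H2 finger alone and 5 matched no C2H2 finger. The classes compared below rest on these matches alone. A missing match does not show that the domain is absent, so the classes with no match can hold genes that have it. The sequences below show 1 finger from each of 4 genes that differed between the groups without overlap of the hearts, and the CCCH finger of Zfp36 for contrast. They are coding strand sequence of the GRCm39 assembly read from GENCODE transcripts, 5′ to 3′, each within 1 coding exon, with the codons of the zinc-binding cysteines and histidines in capitals.
Zfp691: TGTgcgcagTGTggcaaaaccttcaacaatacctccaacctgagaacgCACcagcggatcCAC
Zfp768: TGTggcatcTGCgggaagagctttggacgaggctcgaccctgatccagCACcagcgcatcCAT
Zfp27: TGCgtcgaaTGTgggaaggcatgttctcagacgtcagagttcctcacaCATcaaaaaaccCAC
Zfp740: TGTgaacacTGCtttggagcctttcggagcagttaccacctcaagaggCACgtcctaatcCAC
Zfp36: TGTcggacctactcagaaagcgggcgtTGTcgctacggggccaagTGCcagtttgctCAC

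The Zfp691 finger lies at chr4:119027916-119027978 on the minus strand and is 1 of 7 in that protein. The Zfp768 finger lies at chr7:126943203-126943265 on the minus strand, 1 of 10, and the Zfp27 finger at chr7:29595283-29595345 on the minus strand, 1 of 21. The Zfp740 finger lies at chr15:102117245-102117307 on the plus strand, 1 of 2, and that of Zfp36 at chr7:28077583-28077642 on the minus strand, 1 of 2 CCCH fingers. The Zfp36 finger is 60 bases long and holds 3 cysteines and 1 histidine, against 63 bases in the other 4.

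The KRAB genes matched more fingers, with a median of 12 per protein (range 3 to 23) against 8 (1 to 36) in the C2H2 genes without a KRAB match. Zfp142 had the most fingers of all, 36. The KRAB transcripts had a median GC content of 41.9% against 49.0% for the other C2H2 genes. They also sat closer together in the genome: 56 of 78 KRAB genes had another of the 195 within 500000 bases, against 43 of 112 of the other C2H2 genes and 0 of the 5 without a C2H2 match. Chromosome 7 held 45 of the 195, chromosome 17 held 21 and chromosome 8 held 19.

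Most of these genes were expressed at a modest level. The median was 13.6 CPM, 66 genes lay between 5 and 10 CPM, 189 lay below 50 CPM, and 3 reached 100 CPM. Per transcript length, on the TPM scale, 113 of the 195 were below 5. KRAB genes had a median level of 9.64 CPM and 3.58 TPM, and C2H2 genes without a KRAB match 17.4 CPM and 5.06 TPM. All 195 together took between 0.446% and 0.48% of the counts in each training heart and between 0.449% and 0.466% in each sedentary heart.

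**Figure D1:**
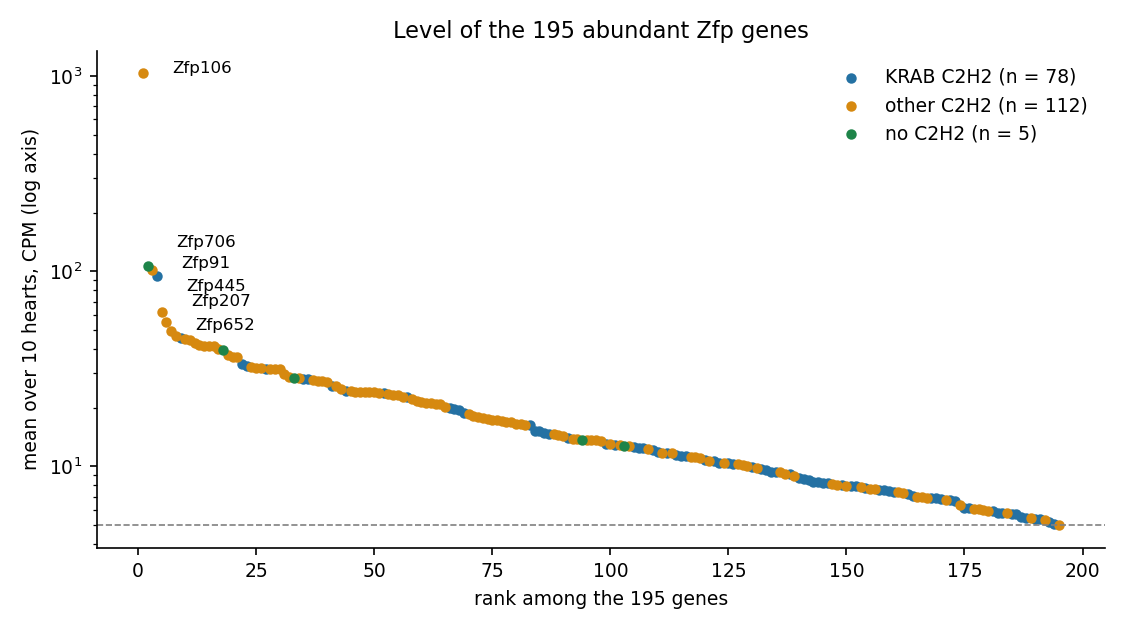
The mean level of each of the 195 genes over the 10 hearts, in CPM on a log axis, against its rank, colored by whether the protein matched a KRAB pattern. Zfp106 stands alone near 1033 CPM, the next 5 are labelled, and the dashed line is the selection level of 5 CPM.

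Zfp106, an RNA-binding protein whose loss causes neuromuscular disease in mice, held 22.5% of all counts on the 195 genes. Its level was 948, 1020, 937, 1035 and 1038 CPM in training hearts 1 to 5 and 1018, 1126, 1065, 1074 and 1081 CPM in sedentary hearts 1 to 5. The training hearts were lower on average, by 0.11 ± 0.046 (SE) on the log2 scale, with overlap between the groups, and the difference did not pass the test (adjusted p = 0.207, edgeR quasi-likelihood). Zfp106 was also the highest per length, at 151 TPM, followed by Zfp706 at 107.2 TPM and Zfp970 at 41.7 TPM. Zfp970, named after its values were seen, is a KRAB gene that ranked only 23 by CPM, with a short RSEM length of 1217 bases. Its RSEM estimate was 1.36 times its unique count, so its rank per length rests partly on shared reads.

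The other genes with most reads differed little between the groups. Zfp706, which encodes a protein of only 77 residues, was at 108 ± 2.10 CPM (SD, n = 5) after training and 104 ± 2.88 CPM without it. Zfp91, a ubiquitin ligase of the NF-kappa-B pathway, was at 99.8 ± 4.03 and 103.7 ± 2.44 CPM. Its RSEM estimate, which shares out reads that map to several places, was 1.60 times its unique count, and it overlaps Gm44505 on the same strand, so its level is uncertain. Zfp445, a KRAB protein that guards imprinting, was at 94.6 ± 6.24 and 94.5 ± 10.7 CPM. Zfp207, a microtubule and spindle factor, was at 62.2 ± 3.47 and 60.9 ± 3.05 CPM, and Zfp652 was at 56.8 ± 3.15 and 53.6 ± 2.54 CPM. Of the 6 genes with most reads 0 passed by edgeR or DESeq2, 1, Zfp106, had an unadjusted p below 0.05, and their adjusted p-values by edgeR ran from 0.207 for Zfp106 to 0.993 for Zfp445. By edgeR 7.01% of all genes tested passed and 20.0% had an unadjusted p below 0.05.

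**Figure D2:**
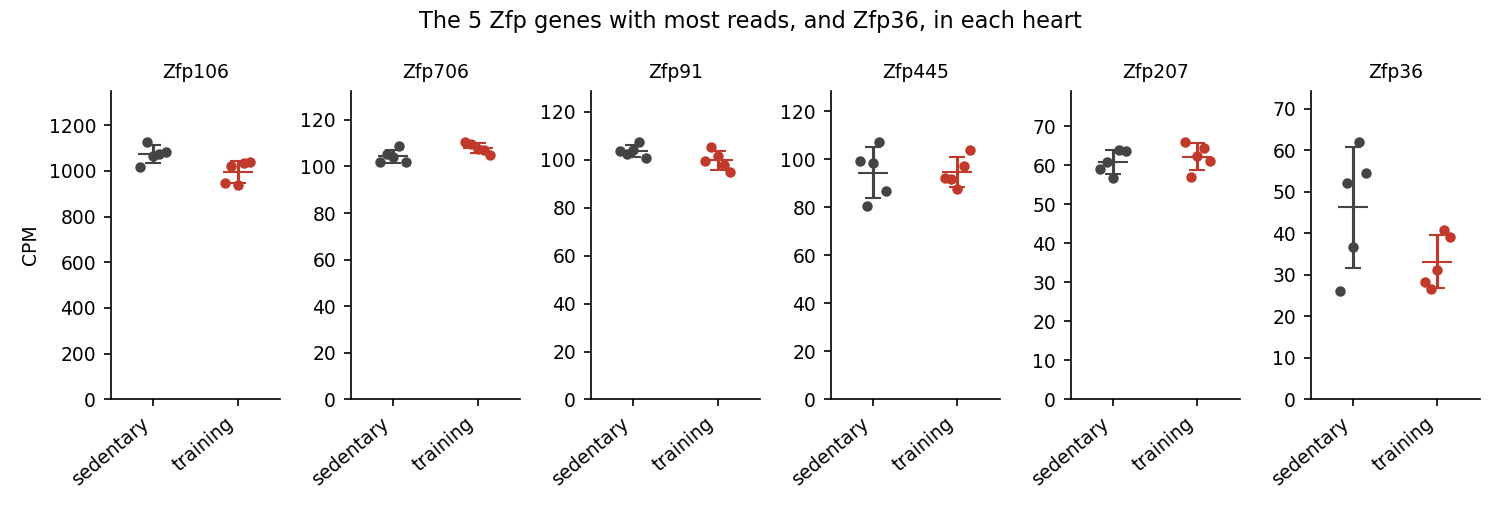
CPM of Zfp106, Zfp706, Zfp91, Zfp445, Zfp207 and Zfp36 in each sedentary (grey) and training (red) heart, with the mean and SD (n = 5) as bars and each axis starting at 0. The groups overlap for all 6 genes, and Zfp36 is the most spread, from 26.0 to 62.0 CPM among the sedentary hearts.

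Near the selection level, the 3 genes just inside were Zfp235 at 5.03, Zfp846 at 5.10 and Zfp101 at 5.18 CPM, and the 3 just outside were Zfp365 at 4.91, Zfp128 at 4.91 and Zfp11 at 4.90 CPM.

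The next question was whether training changed these genes. Of the 195, all of which were tested, 16 passed at an adjusted p (FDR) below 0.1 by edgeR, 5 higher and 11 lower in training hearts. That is 8.21%, against 7.01% of all 15454 genes tested (2.75% higher and 4.26% lower) and 8.97% of protein-coding genes at 5 CPM or more. The share was thus near the background. The hearts of the groups did not overlap for 8 of the 195, against 5.06% of all genes tested. Of these 8, 6 passed, and Zfp930 and Zfp74, both lower in every training heart, did not (adjusted p = 0.128 and 0.182, edgeR). On the log2 scale 98 of the 195 fold changes were positive and 97 negative, and their median was 0.0016, against 0.00026 over all genes tested, with all 195 between −0.48 and 0.34.

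The KRAB and the other C2H2 genes both had a median change close to 0. Of the 78 KRAB genes, 1 was higher and 3 were lower (5.13%, median log2 fold change 0.0044). Of the 112 other C2H2 genes, 4 were higher and 8 lower (10.7%, median −0.0033). Over all genes tested 7.01% passed, and 8.97% of protein-coding genes at 5 CPM or more. Of the 5 genes without a C2H2 match 0 passed by edgeR or DESeq2, with 1, Zfp36, at an unadjusted p below 0.05. The 45 genes of chromosome 7 gave 0 higher and 3 lower (6.67%). The 21 of chromosome 17 gave 0 by edgeR and by DESeq2, with 0 at an unadjusted p below 0.05. Among the 188 Zfp genes below 5 CPM, 136 could be tested and 1 passed, which is 0.735%, against 3.68% of the protein-coding genes tested below that level. Of 16 members known as sequence-specific regulators without KRAB, 1 was higher (Zfp516) and 1 lower (Zfp410), with a median of 0.0052. That is 11.8% of the 17 genes listed, which include Zfp423 below 5 CPM. Of 4 members with a role in ubiquitin, SUMO or the spindle 0 passed by edgeR or DESeq2, with 0 at an unadjusted p below 0.05.

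Among the lower genes, Zfp710 (chromosome 7, 79674562 to 79743921, plus strand), with 11 fingers, had the smallest adjusted p and was at 21.9, 23.4, 22.8, 22.2 and 19.9 CPM in training hearts 1 to 5 and at 25.9, 27.5, 27.1, 25.3 and 25.5 CPM in sedentary hearts 1 to 5. Every training heart was below every sedentary heart, and the gene fell by 0.25 ± 0.051 (SE) on the log2 scale (adjusted p = 0.0220, edgeR). The gene overlaps Idh2, the abundant mitochondrial isocitrate dehydrogenase, on the opposite strand. With counts of both strands its log2 fold change was −0.13 and it did not pass.

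Zfp768, a target of RAS and ERK signaling in cell growth, measured 35.8, 36.9, 37.0, 37.3 and 34.9 CPM in training hearts 1 to 5, and the sedentary hearts in the same order had 39.5, 40.5, 44.5, 49.5 and 46.5 CPM. Again no hearts overlapped, and the training hearts were closer to each other than the sedentary ones (SD 1.03 against 4.15 CPM). The log2 fold change was −0.28 ± 0.059 (adjusted p = 0.0259, edgeR). Zfp691 measured 19.3, 21.6, 19.9, 20.4 and 18.1 CPM in training hearts 1 to 5, and the sedentary hearts in the same order had 24.8, 22.1, 23.7, 25.3 and 22.6 CPM. The groups came within 1 CPM of each other without overlap, at a log2 fold change of −0.25 ± 0.057 (adjusted p = 0.0315, edgeR).

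Zfp617, a KRAB gene, measured 12.0, 12.5, 11.5, 11.5 and 11.9 CPM in training hearts 1 to 5, and the sedentary hearts in the same order had 13.6, 13.6, 14.0, 14.7 and 13.7 CPM. The log2 fold change was −0.23 ± 0.049 (adjusted p = 0.0278, edgeR) with no overlap. It shares the strand and part of its locus with Zfp882, and RSEM gave it 2.26 times the unique count, so its level is uncertain. Zfp27, a KRAB gene with 21 fingers, measured 13.6, 15.0, 14.5, 13.9 and 12.5 CPM in training hearts 1 to 5, and the sedentary hearts in the same order had 16.2, 16.4, 17.3, 17.6 and 15.5 CPM. These too did not overlap, and the gene fell by 0.26 ± 0.059 on the log2 scale (adjusted p = 0.0356, edgeR).

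Zfp469 had the largest fall among the genes that passed. Its human counterpart is mutated in brittle cornea syndrome and is tied to collagen in the extracellular matrix. It measured 8.41, 8.62, 10.7, 7.47 and 8.72 CPM in training hearts 1 to 5, and the sedentary hearts in the same order had 9.71, 11.5, 12.1, 14.6 and 12.9 CPM. Training heart 3 lay above sedentary heart 1, so the groups overlapped by that pair. The log2 fold change was −0.46 ± 0.11 (adjusted p = 0.0379, edgeR). With its length of 11864 bases, it was the second lowest of the 195 per length, at 0.921 TPM.

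The other 5 lower genes overlapped between the groups, each by a small margin. Zfp827, which recruits the NuRD remodeling complex to telomeres, was at 21.9 ± 1.27 against 25.4 ± 1.71 CPM (SD, n = 5 each). Zfp672 was at 42.3 ± 1.24 against 48.1 ± 3.51 CPM. Zfp408, which is linked to vessel growth in the retina, was at 6.42 ± 0.517 against 7.59 ± 0.470 CPM, and the KRAB gene Zfp971 at 7.89 ± 0.441 against 9.39 ± 0.987 CPM. Their log2 fold changes were −0.22, −0.19, −0.24 and −0.25, with adjusted p-values by edgeR of 0.0578, 0.0606, 0.0957 and 0.0933.

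Zfp410 is known for activating a very small number of genes, chief among them Chd4, the ATPase of the NuRD complex. Zfp410 was at 20.1 ± 1.09 CPM after training and 22.7 ± 0.908 CPM without it, a log2 fold change of −0.17 ± 0.050 (adjusted p = 0.0765, edgeR). Training heart 4, at 21.5 CPM, was above sedentary heart 5, at 21.3 CPM. Chd4, picked for mention after its values were seen, was at 191 ± 6.44 against 202 ± 4.89 CPM and did not pass (log2 fold change −0.08 ± 0.037, adjusted p = 0.222, edgeR). Whether the levels of these genes are linked was not tested.

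Of the 5 higher genes, Zfp740 was the most even. It measured 52.6, 47.5, 48.0, 50.1 and 48.2 CPM in training hearts 1 to 5, and the sedentary hearts in the same order had 45.2, 43.6, 43.8, 43.8 and 41.4 CPM. Every training heart was above every sedentary heart, with a log2 fold change of 0.18 ± 0.041 (adjusted p = 0.0371, edgeR).

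Zfp395, whose human counterpart is induced by low oxygen, rose most. It measured 21.2, 21.6, 19.9, 21.5 and 17.2 CPM in training hearts 1 to 5, and the sedentary hearts in the same order had 18.4, 15.0, 16.98, 15.4 and 14.2 CPM. Only training heart 5 fell within the sedentary range, and the log2 fold change was 0.34 ± 0.079 (adjusted p = 0.0358, edgeR). Zfp275 on the X chromosome was at 19.03 ± 2.04 against 15.6 ± 1.39 CPM, a log2 fold change of 0.29 ± 0.079 (adjusted p = 0.0629). Zfp516, a regulator of brown fat genes, was at 15.8 ± 1.02 against 13.3 ± 1.41 CPM (0.24 ± 0.073, adjusted p = 0.0828), and the KRAB gene Zfp212 at 10.3 ± 0.719 against 8.91 ± 0.484 CPM (0.22 ± 0.065, adjusted p = 0.0877, edgeR). For each of these 3 genes 1 sedentary heart lay within the range of the training hearts, and the other 4 lay below it.

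**Figure D3:**
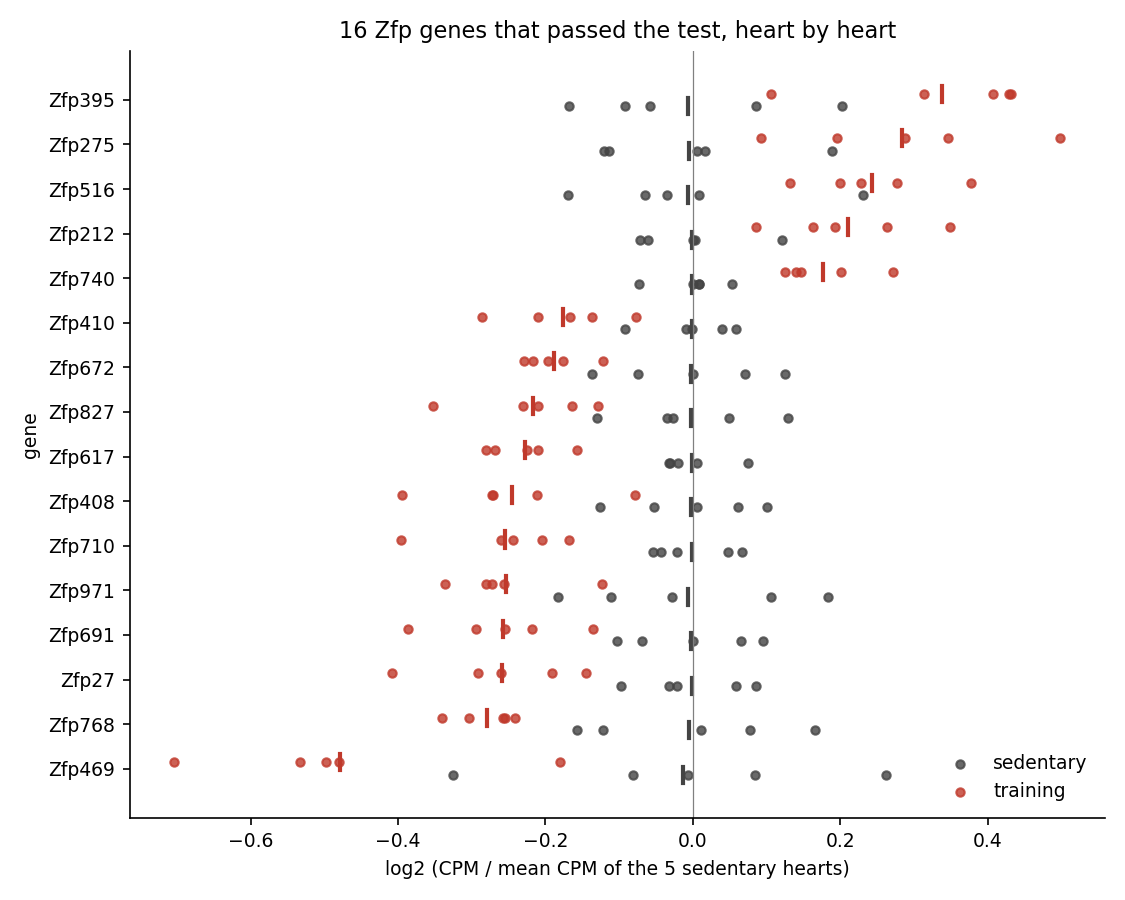
Each of the 16 genes that passed, with the CPM of every heart relative to the mean of the 5 sedentary hearts on a log2 axis. Grey points are sedentary hearts, red points are training hearts and the vertical strokes are group means; the groups do not overlap for Zfp710, Zfp768, Zfp617, Zfp691, Zfp27 and Zfp740.

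Of these 16, 8 passed in every fit that left out 1 heart, namely Zfp469, Zfp768, Zfp27, Zfp691, Zfp710, Zfp617, Zfp740 and Zfp395. The count fell to 9 without training heart 3, to 9 without sedentary heart 3 and to 8 without sedentary heart 4, while the share of all genes tested fell from 7.01% to 3.47%, 3.29% and 4.3%. With an atrial marker score of each heart as a covariate 2 genes passed, Zfp691 and Zfp672, both lower, among 81 of all 15454 genes (0.524%). The score itself differed between the groups, at 0.052 to 0.69 in training hearts and −0.98 to 0.33 in sedentary hearts. In this fit the score and training cannot be fully told apart. With library totals in place of TMM scaling the split was 8 higher and 6 lower, the median of all genes then being 0.053.

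Zfp36 (tristetraprolin) had the lowest log2 fold change of the 195, −0.48 ± 0.20, and did not pass (adjusted p = 0.193, edgeR). It was at 28.2, 26.6, 31.3, 40.7 and 39.2 CPM in training hearts 1 to 5 and at 26.0, 52.1, 36.8, 62.0 and 54.5 CPM in sedentary hearts 1 to 5. The lowest heart of all was thus a sedentary one, and the coefficient of variation among sedentary hearts, 31.5%, was the largest of the 195. Without sedentary heart 1 the log2 fold change was −0.63 and the adjusted p was 0.0299. It also passed with no filter on low counts (−0.49, adjusted p = 0.0808) and with the mouse number as a block (−0.44, adjusted p = 0.0769, edgeR). These were the exceptions. Zfp36 passed in 1 of 10 fits without 1 heart, where the adjusted p reached 0.373 (edgeR), and in 2 of 12 other alternatives. DESeq2 did not call it, and over the 12 alternatives its log2 fold change ran from −0.50 to −0.20.

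Zfp36 is an immediate early gene, and a score over 14 others of that kind was −0.43, −0.19, −0.094, 0.25 and 0.22 in sedentary hearts 1 to 5, as a mean log2 deviation, and 0.071, −0.073, 0.25, 0.083 and −0.076 in training hearts 1 to 5. The heart with the least Zfp36 was also the one with the lowest score. Sedentary hearts 4 and 5, with scores of 0.25 and 0.22, had the most Zfp36, at 62.0 and 54.5 CPM. Other hearts went the other way. Sedentary heart 2 had 52.1 CPM at a score of −0.19, and training heart 3 had 31.3 CPM at 0.25. Of the 14 genes 0 passed by edgeR or DESeq2 and 3 had an unadjusted p below 0.05, against 7.01% and 20.0% of all genes tested by edgeR. Their median log2 fold change was 0.019, and the part of this score in the level of Zfp36 was not tested.

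The other members with a known role in RNA or the ribosome did not pass. Zfp598, the ligase that marks collided ribosomes, was at 28.95 ± 1.67 against 30.9 ± 0.912 CPM. Zfp622, which acts in maturation of the large ribosomal subunit, was at 24.5 ± 1.153 against 24.1 ± 1.84 CPM. Zfp326, of the complex that couples splicing to elongation, was at 13.2 ± 0.825 against 14.3 ± 0.960 CPM. Zfp346, which binds double-stranded RNA, was at 28.3 ± 2.29 against 29.001 ± 0.991 CPM, Zfp638 at 42.1 ± 2.43 against 41.3 ± 3.44 CPM, and the nucleolar Zfp330 at 13.1 ± 1.06 against 12.4 ± 0.597 CPM. Of the 8 members of this list 0 passed by edgeR or DESeq2 and 2, Zfp106 and Zfp36, had an unadjusted p below 0.05, with log2 fold changes from −0.48 for Zfp36 to 0.08 for Zfp330. Over all genes tested 7.01% passed by edgeR and 20.0% had an unadjusted p below 0.05, so a list this short can hold few that pass.

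The 3 members known for silencing retroelements or guarding imprints also did not pass by edgeR or DESeq2, and 1, Zfp809, had an unadjusted p below 0.05. The shares over all genes tested were 7.01% and 20.0% by edgeR. Zfp809, which silences retroviruses, measured 19.5, 21.9, 20.1, 21.8 and 23.8 CPM in training hearts 1 to 5, and the sedentary hearts in the same order had 23.1, 24.9, 22.5, 25.9 and 23.8 CPM. The groups overlapped through training heart 5, and the log2 fold change was −0.17 ± 0.061 (adjusted p = 0.145, edgeR). Zfp568, which represses a placental transcript of Igf2, was at 27.5 ± 3.59 against 28.4 ± 2.69 CPM.

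Of the partners of the KRAB domain, most did not pass. Trim28 was at 66.2 ± 1.87 against 62.9 ± 2.00 CPM (log2 fold change 0.07 ± 0.038, adjusted p = 0.299, edgeR). Setdb1 was at 21.6 ± 0.817 against 22.0 ± 0.340 CPM (−0.03 ± 0.043, adjusted p = 0.789, edgeR). Of 29 cofactor genes 1 was higher and 0 were lower by edgeR, which is 3.45% against 7.01% of all genes, with a median log2 fold change of 0.017 and 6 genes at an unadjusted p below 0.05. DESeq2 called 2, Rbbp4 and Cbx5. The gene that passed by edgeR was Rbbp4, a histone-binding subunit of NuRD, at 74.0 ± 3.27 against 66.9 ± 2.90 CPM (0.15 ± 0.044, adjusted p = 0.0830, edgeR). Cbx5, a heterochromatin protein that reads H3K9 methylation, was at 78.8 ± 2.39 against 72.5 ± 2.42 CPM with no overlap of the hearts (log2 fold change 0.12 ± 0.038, adjusted p = 0.104 by edgeR and 0.0357 by DESeq2). Both were named after their values were seen.

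Besides Zfp36, the list chosen for heart and muscle held 2 members. Zfp260, a partner of Gata4 in cardiomyocytes, was at 36.9 ± 1.97 CPM after training and 36.3 ± 1.18 CPM without it. Zfp697, which acts in skeletal muscle, was at 16.9 ± 2.36 against 16.2 ± 1.295 CPM. Neither passed (adjusted p = 0.818 and 0.765, edgeR).

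The fold changes were last set against gene length, taken as the mean transcript length that RSEM gives each gene. The 195 genes had a median length of 3185 bases. Longer genes had lower TPM (Spearman's rho −0.463, n = 195 genes), a value that has length in its divisor, while for CPM rho was 0.125. These are descriptions across genes of the same libraries, and genes are not independent replicates.

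For the log2 fold change, rho with length was 0.170 and Pearson's r with log2 length 0.124 over the 195 genes, against 0.141 and 0.118 over all 15454 genes tested. Over the 10240 genes tested at 5 CPM or more, the level at which the 195 were selected, they were 0.154 and 0.135. The 65 shortest genes, of 1056 to 2688 bases, had a median log2 fold change of −0.036, with 0 higher and 7 lower. The 65 of intermediate length had a median of 0.014, with 3 higher and 2 lower, and the 65 longest, of 3911 to 13371 bases, a median of 0.016, with 2 higher and 2 lower. All tested genes in the same length classes had medians of −0.014, 0.015 and 0.021. Among them 156 were higher and 406 lower of 8845 in the shortest class, 118 and 122 of 3319 in the middle class, and 151 and 131 of 3290 in the longest class, so that lower calls outnumbered higher ones among short genes in general. Tested genes at 5 CPM or more had medians of −0.020, 0.0052 and 0.014 in these classes. In the shortest class 120 of them were higher and 353 lower of 5304, which is 8.92% passing, against 10.8% of the 65 shortest Zfp genes. With a smooth trend on length removed from each library, rho over the 195 was 0.075 and 16 genes passed, 4 higher and 12 lower.

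The relation was more marked among the KRAB genes, with rho 0.337 and r 0.374 (n = 78), than among the other C2H2 genes, with rho 0.088 and r 0.010 (n = 112). This difference was not tested. The 39 shorter KRAB genes, of 1185 to 2980 bases, had a median log2 fold change of −0.044 and held all 4 KRAB genes that passed, 1 higher and 3 lower. The 39 longer ones had a median of 0.035, with 24 above 0 and 15 below. Of the other C2H2 genes, the 56 shorter gave 1 higher and 6 lower, and the 56 longer 3 higher and 2 lower. Over all tested genes of 67 to 2690 bases, 6.35% passed, more of them lower than higher. Of those at 5 CPM or more in that class, 8.92% passed. At 2691 to 3904 bases 8.78% of genes at that level passed (89 higher and 117 lower), and 9.46% of longer ones (121 and 124). These classes were cut at other lengths than the KRAB and other C2H2 genes, and the shares were not tested against each other. Among fits without 1 heart, rho of the KRAB genes ran from 0.258 to 0.426, and with the length trend of all genes removed it was 0.258.

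**Figure D4:**
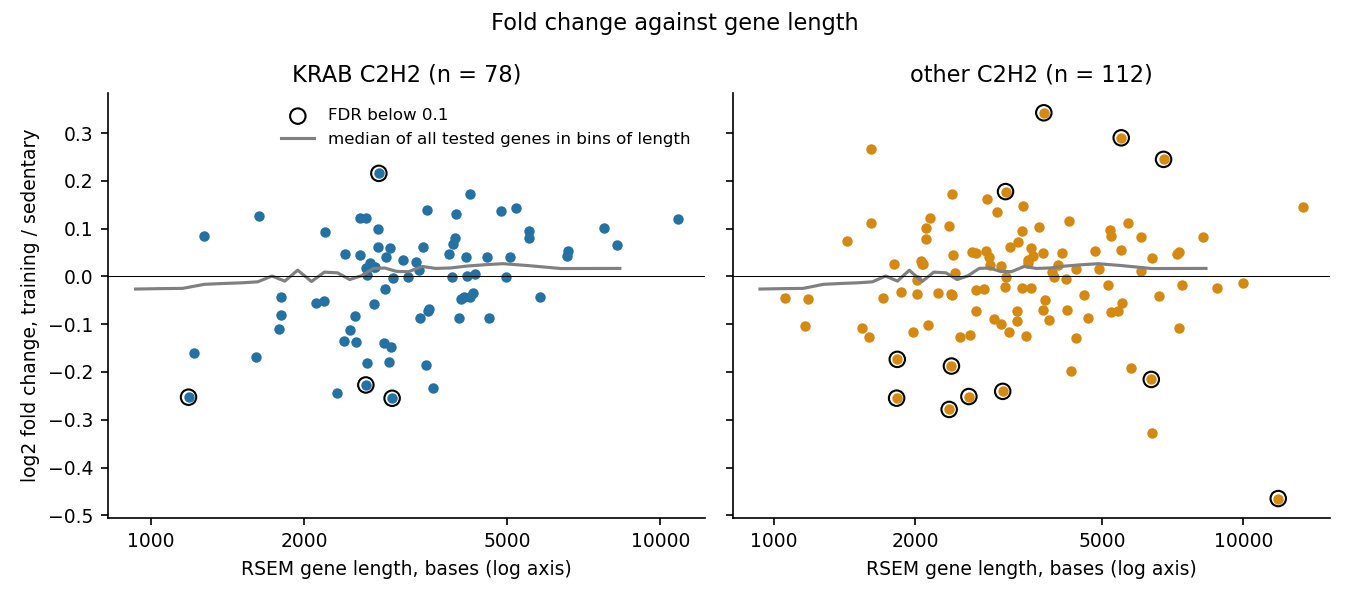
Log2 fold change of training over sedentary hearts against RSEM gene length on a log axis, for the 78 KRAB genes (left) and the 112 other C2H2 genes (right). Circles mark the genes with FDR below 0.1 and the grey line is the median of all tested genes in bins of length; short KRAB genes lie lower than long ones, with rho 0.337, against 0.088 on the right.

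The length pattern was not shared by all hearts of a group. Each gene's deviation from its mean over the 10 hearts had a rho with length of −0.20, 0.079, 0.26, 0.039 and 0.21 over the 195 genes in training hearts 1 to 5, and of −0.15, −0.14, −0.081, −0.087 and 0.020 in sedentary hearts 1 to 5. Training heart 1 had the most negative value of all 10, below every sedentary heart, and the other 4 training hearts lay above every sedentary heart. Over all tested genes training heart 1 was likewise lowest, at −0.24. Without it, rho of the log2 fold change over the 195 genes was 0.25.

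**Figure D5:**
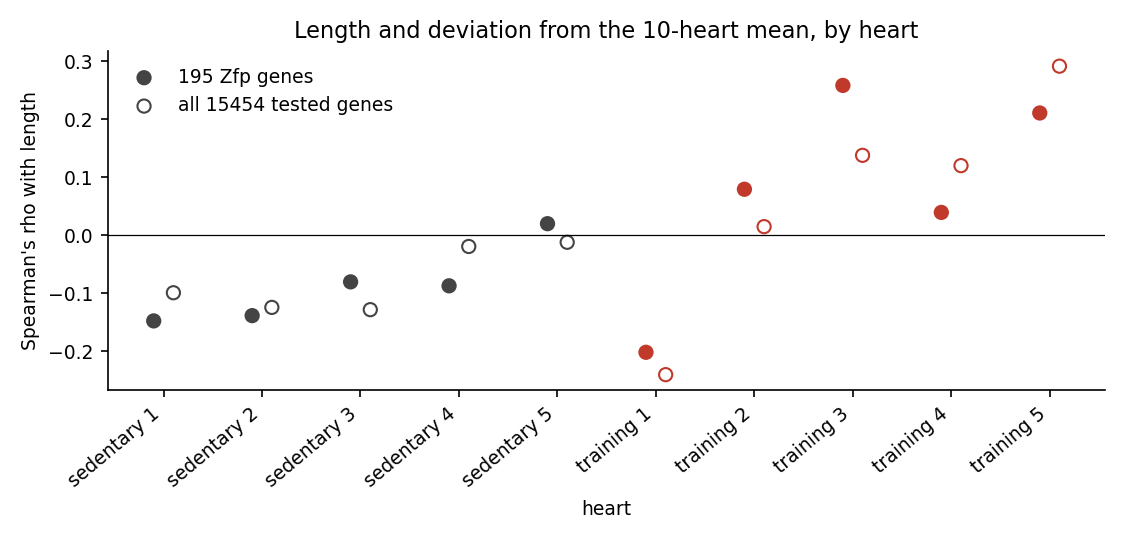
Spearman's rho between RSEM length and each heart's log2 deviation from the 10-heart mean, for the 195 genes (filled) and all 15454 tested genes (open), sedentary hearts in grey and training hearts in red. Training heart 1, at −0.20 for the 195 genes, stands apart from the other 4 training hearts, at 0.039 to 0.26.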

How the data were processed

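The authors sequenced poly(A) libraries (directional NEBNext Ultra II kit, single reads of 100 bases) and, per the labels, aligned them to GRCm39 with STAR 2.7.10a. The deposited STAR counts per gene (reverse strand, which held 94.9% to 95.6% of stranded counts) were tested as deposited. The authors' deposited RSEM 1.3.3 expected counts, rounded, served as an alternative, and their deposited TPM and transcript lengths as levels per length.

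The edgeR 4.0.16 quasi-likelihood test (filterByExpr, TMM, Benjamini-Hochberg over 15454 genes, FDR below 0.1; R 4.3.3) compared the groups, and its SE is the fold change over the root of F. CPM use TMM-corrected totals, except the plain CPM of the selection. DESeq2 1.42.0 was an alternative. The fits were tested on simulated data. Symbols and types came from GENCODE M39, which matched 56017 of 56748 identifiers. Finger and KRAB patterns were searched in translations of its coding sequences, in place of RefSeq proteins as planned, and no match does not show that a domain is absent. Pairs of hearts within a group differed by 5.71 to 25.1 times counting noise (chi-square per degree of freedom), so none was the same library counted again. That each library came from a separate mouse rests on the labels.

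The genes and lists were chosen with earlier results of these data known. Named were all genes that passed, the 6 with most reads, the 3 on each side of 5 CPM, the lists for RNA and ribosome, imprinting and retroelements, and heart and muscle, and Trim28 and Setdb1. Same-numbered mice were not treated as pairs, since their deviations correlated at −0.097, 0.159, 0.075, 0.024 and 0.159 over 15454 genes. Alternatives covered scaling, filters, counting, strand, a mouse block, loess trends on length and GC (span 0.3), thinning, an atrial covariate and leaving out each heart.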

Additional observations from a re-analysis of the deposited data

Results flagged for a closer look

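Among 72 groups examined (36 named genes, each in both groups of 5 hearts), 1 held a heart far from the rest. Zfp330, a nucleolar protein gene, was at 13.5 CPM in sedentary heart 2 and at 12.1 to 12.2 CPM in the other 4 sedentary hearts. The gap was 0.901 of the group's range, above the critical value of 0.71 for 5 hearts, which chance exceeds in about 1 of 20 groups. In the training hearts the gene ranged from 12.3 to 14.5 CPM, so the high sedentary value lies within the spread of the other group.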

How the results depend on the processing

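The count of 16 genes that passed lay between 8 and 20 in fits without 1 heart (9 without training heart 3, 9 without sedentary heart 3, 8 without sedentary heart 4). In those fits between 3.29% and 9.58% of all genes tested passed, the latter without sedentary heart 1, which gave the 20. The count was 2 with the atrial score as covariate and 18 by DESeq2, where 0.524% and 9.53% of all genes passed. At FDR below 0.05 it was 8, and the share of all genes at that level was not taken. The block of mouse numbers (the labels share only a number) gave 17, 4 higher and 13 lower, with 7.36% of all genes passing. Library totals gave 14, 8 higher and 6 lower, with 8.85% of all genes passing. The median log2 fold change of the 195 genes lay between −0.013 and 0.013 without 1 heart and was 0.054 with library totals.

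Over 352 values of the 16 genes under the alternatives, 0 changed sign, 268 still passed and 84 did not. The 16 were taken for passing the main fit and the alternatives refit the same hearts, so the lack of sign changes is no separate support. Among 440 values of the other 20 named genes, 22 changed sign and 4 passed, namely Zfp36 with no filter, with the block and without sedentary heart 1, and Zfp809 without training heart 5. Library totals gave Zfp235 0.022, Zfp568 0.015 and Zfp346 0.014. Zfp445 was −0.0078 with no filter, −0.0040 with RSEM, −0.032 with length and −0.016 with GC trends removed and −0.12 with the atrial score, and Zfp235 was 0.013 after thinning. The atrial score also gave Zfp846 0.025, Zfp260 −0.014, Zfp638 −0.077 and Zfp346 0.0058. Without 1 heart, Zfp235 ran from −0.065 to 0.012, Zfp445 from −0.051 to 0.051, Zfp568 from −0.11 to 0.024, Zfp638 from −0.0080 to 0.065 and Zfp697 from −0.011 to 0.11. The cause of these changes was not tested.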
